A study of Mus musculus with 43 samples.

Results

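Days 5 and 6 of reprogramming in Gatad2a-/- cells were set against days 3 and 4 of the same course. The comparison holds 4 of the 43 poly(A) RNA-seq libraries of the series: 1 library of each of the 4 days, taken from the deposited table of the Gatad2a-/- system, which has 10 libraries. Adjacent days were taken as replicates of a stage, so the spread within a group is the difference between 2 consecutive days of 1 course, and nothing in the labels says that the days come from separate cultures. The question is which genes distinguish the 2 stages.

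The cells were secondary mouse embryonic fibroblasts (MEF) lacking Gatad2a, which carry a doxycycline-inducible cassette of Oct4 (Pou5f1), Klf4, Sox2 and Myc (OKSM). Doxycycline was added in fetal bovine serum with LIF under low oxygen, and all 4 libraries, like the later ones, come from cells plated on irradiated human foreskin fibroblasts. In the design text the switch to serum replacement with LIF plus MEK and GSK3 inhibitors (2i) falls between the harvests of day 3 and day 4. The growth protocol places the inhibitors before day 3, so whether days 3 and 4 differ in medium cannot be settled from the labels. The Mbd3f/- system, with 1 floxed and 1 deleted Mbd3 allele, was sampled on the same days, and WT-2, isogenic to Gatad2a-/-, and WT-1, another wild type, on days 4 and 6. The sources used here do not say whether the Gatad2a-/- line is 1 clone.

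Gatad2a and Mbd3 are subunits of NuRD, a complex that joins nucleosome remodelling with histone deacetylation and is recruited to many promoters and enhancers. In reprogramming, forced expression of the 4 factors first erodes the fibroblast programme and brings up epithelial genes, and later the endogenous pluripotency network takes over. In mouse cells, inhibition of MEK and GSK3 with LIF stabilises the naive state, in which Esrrb, Tfcp2l1, Nanog and the Dppa genes are active.

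Values are FPKM per gene, fragments scaled by transcript length and by the mapped fragments of the library. Gatad2a itself, which checks the genotype, was listed at 9.30 and 10.5 FPKM on days 5 and 6, against 8.59 and 10.3 FPKM on days 3 and 4. WT-2 was listed at 9.499 FPKM on day 6 and 11.1 FPKM on day 4. The Gatad2a FPKM therefore did not separate Gatad2a-/- from wild type. The sources used here do not say which part of the gene is disrupted, and reads from an intact part of the transcript would be counted, so this value checks the label only in part. Mbd3 was at 72.2 and 62.7 FPKM on days 5 and 6, against 63.2 and 77.6 FPKM on days 3 and 4.

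The 4 libraries were close in the upper quartile of protein-coding FPKM, where day 6 was lowest, and less alike in the small RNA genes. The upper quartile of protein-coding FPKM was 18.9 and 17.0 on days 5 and 6, against 18.8 and 18.5 on days 3 and 4. The share of the summed FPKM listed at the 5 leading genes was 53.8% and 82.7% on days 5 and 6, against 48.8% and 51.5% on days 3 and 4, so the day 6 library stands apart. Small RNA genes (miRNA, snoRNA, snRNA, rRNA and the like) held 66.5% and 77.1% of the summed FPKM on days 5 and 6, against 61.7% and 62.4% on days 3 and 4. In the 24 libraries of the other 3 courses this share lay between 0.0968% and 12.4%. Such genes are shorter than a typical sequenced fragment and are not polyadenylated as a rule, so their FPKM are uncertain, and a listed 0 can be a failed estimate. All 37 mitochondrial genes were listed at 0 as well. The depth of the libraries is unknown.

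**Figure D1:**
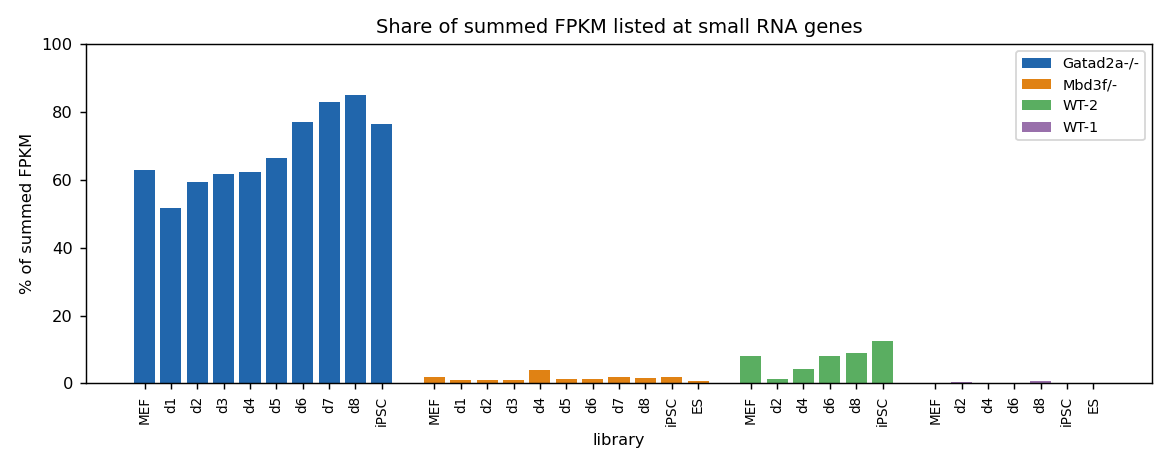
Share of the summed FPKM (%, vertical axis) listed at small RNA genes in each library (horizontal axis), by system; each bar is 1 library. All 10 Gatad2a-/- libraries lie between 51.8% and 85.0%, and no library of the other systems is above 12.4%.

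Of the 16307 genes tested, those that reached 1 FPKM in 2 or more of the 4 libraries, 7 were higher (0.0429%) and 26 lower (0.159%) on days 5 and 6 at an adjusted p under 0.05 in limma on log2(FPKM + 1). Of these 33 genes 30 are small RNA genes, 1 has no entry in the annotation used, 1 is a processed pseudogene and 1 is a predicted protein-coding gene. In 31 of them both libraries of 1 group were listed at or near 0. Gm3625, the predicted protein-coding gene, was at 28.3 and 23.6 FPKM on days 5 and 6, against a listed 0 on both days 3 and 4 (adjusted p = 0.0193, limma). The counts also rest on single libraries: without day 6, without day 3, or with no filter on low values limma called 0 in both directions, a share of 0%. There were 1863 genes at an unadjusted p under 0.05 (645 without day 6, 1289 without day 3 and 2410 with no filter). With 2 residual degrees of freedom, the large and gradual changes described next did not pass the test over all genes.

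When the test was restricted to the 11647 protein-coding genes, a setting chosen after seeing the data, 23 were higher (0.197%) and 6 lower (0.0515%), 0.249% in all. The 23 higher genes include Dppa4 and Dppa2, nuclear proteins of the early embryo, Rhox5, a reproductive homeobox gene, Piwil2, a piRNA-pathway protein of the germline, Gtsf1l, a relative of a germline piRNA cofactor, Grhl2, a master regulator of epithelial junction genes, and Sox15. The 6 lower genes were Atp12a, an ion-pumping ATPase, Id1, an inhibitor of bHLH factors and a BMP target, Anxa1, a calcium-dependent membrane-binding protein, Nrg1, an ErbB receptor ligand, Dusp14, a phosphatase, and Fam107b. Adjusted p-values of these 29 genes lay at or above 0.00771. Some of them, such as Dppa4, Dppa2 and Nrg1, passed the filter on low values through 1 stage alone. Upper quartile scaling left 1 higher (Gm3625) and 0 lower of the protein-coding genes at an adjusted p under 0.05 (1578 at an unadjusted p under 0.05). With the spread estimated over all 10 Gatad2a-/- libraries, 117 protein-coding genes were higher (1%) and 37 lower (0.318%), 1.32% in all; over all genes the shares were 0.294% higher and 0.184% lower, 0.478% in all.

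Because few genes passed, the report describes genes by whether the 2 groups overlap. Both later days lay above both earlier days in 3321 of the 16307 genes (20.4%) and below them in 3947 (24.2%). With a difference of the group means of at least 1 on the log2(FPKM + 1) scale as well, 504 protein-coding genes were higher (4.33%) and 497 lower (4.27%); over all genes the counts were 831 (5.1%) and 793 (4.86%). Such genes are called clearly higher or clearly lower below, as a description without a test. Leaving out 1 library at a time gave 427 to 681 clearly higher protein-coding genes. For clearly lower ones it gave 361 to 1044, with 1028 without day 5 and 1044 without day 4. The median change of all genes tested was -0.07.

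Adjacent days within a group differed too. Between days 3 and 4, 430 protein-coding genes were higher and 961 lower on day 4 by at least 1 on the log2(FPKM + 1) scale, 11.9% in all. Between days 4 and 5, the step across the 2 groups, 533 were higher and 256 lower on day 5 (6.77%). Between days 5 and 6 the share was 4.81%, and between days 6 and 7 it was 3.43%. Of the 504 clearly higher genes, 82 had their largest step between days 3 and 4, 311 between days 4 and 5 and 111 between days 5 and 6. Of the 497 clearly lower genes, 234 had their largest step between days 3 and 4, 171 between days 4 and 5 and 92 between days 5 and 6. The choice of these genes asks for a gap between day 4 and day 5, so the counts at that step are partly fixed by it and are given as a description.

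**Figure D2:**
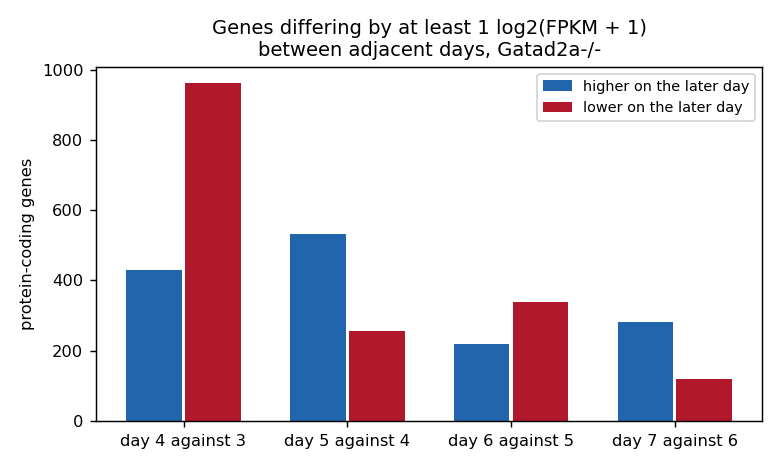
Number of protein-coding genes (vertical axis) that differ by at least 1 on the log2(FPKM + 1) scale between adjacent days of the Gatad2a-/- course (horizontal axis), higher (blue) or lower (red) on the later day; each pair of bars compares 2 libraries. The tallest bar is the 961 genes lower on day 4 than on day 3, and genes higher on the later day are most numerous at day 5 against day 4 (533).

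Several genes of the early embryo were among the largest increases. Dppa5a (chr9:78367052-78368177, minus strand, GRCm38), an RNA-binding protein of the pluripotent epiblast, had 70.0 and 486 FPKM on days 5 and 6, against 0.659 and 3.97 FPKM on days 3 and 4. Its change was 6.02 ± 1.24 (log2(FPKM + 1), SE; adjusted p = 0.299, limma). The 4 days are in ascending order, with a wide gap between day 4 and day 5, and the iPSC library had 1106 FPKM. Dppa4 had 17.0 and 39.3 FPKM on days 5 and 6, against 0.104 and 0.764 FPKM on days 3 and 4, a change of 4.27 ± 0.51 (adjusted p = 0.0636 over all genes and 0.0306 among protein-coding genes, limma). Dppa2, which forms a complex with Dppa4, had 9.16 and 23.4 FPKM on days 5 and 6, against 0.188 and 0.618 FPKM on days 3 and 4. Both had been close to 0 until day 4. They were under 1 FPKM on both earlier days and passed the filter on low values through days 5 and 6 alone. Dppa3, a maternal factor that guards DNA methylation in the zygote, had 8.01 and 32.1 FPKM on days 5 and 6, against 0.176 and 1.28 FPKM on days 3 and 4. Tdgf1, the Nodal co-receptor, had 163 and 262 FPKM on days 5 and 6, against 1.196 and 64.4 FPKM on days 3 and 4. Its groups do not overlap, but the step within the earlier group was larger than the step between the groups, and its SE of 2.06 for a change of 4.11 reflects that.

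Of the 33 other pluripotency genes listed, 31 passed the filter on low values, 4 of them through days 5 and 6 alone, as did 2 of the 19 naive factors and 2 of the 29 epithelial genes below; such members had to be higher. None passed the test over all genes, and 2 (Dppa4 and Dppa2) passed among protein-coding genes. Both were under 1 FPKM on days 3 and 4, so both are among the 4 admitted through days 5 and 6 alone. In the list 21 were clearly higher and 0 clearly lower (17 clearly higher without day 6), against 4.33% and 4.27% of protein-coding genes. The list's median change was 2.02, with those 4 included. Utf1, a chromatin-associated factor of pluripotent cells, had 40.3 and 42.2 FPKM on days 5 and 6, against 2.90 and 10.9 FPKM on days 3 and 4. Fgf4, the FGF ligand of the inner cell mass, had 39.4 and 70.0 FPKM on days 5 and 6, against 7.40 and 19.8 FPKM on days 3 and 4. Not all members followed. L1td1, an RNA-binding protein, had 257 and 201 FPKM on days 5 and 6, against 132 and 358 FPKM on days 3 and 4, and Tdh, threonine dehydrogenase, had 57.2 and 49.9 FPKM, against 19.3 and 59.6 FPKM. In both, day 4 was the highest of the 4 days, so the groups overlap.

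The naive transcription factors were split in the same way. Of 20 members 19 were tested, and the median change was 1.12. Of these, 10 were clearly higher and 0 clearly lower, against 4.33% and 4.27% of protein-coding genes. The count was 6 without day 3, when only day 4 stands for the earlier stage. Esrrb, the orphan nuclear receptor at the core of the naive network, had 43.5 and 79.0 FPKM on days 5 and 6, against 0.202 and 14.6 FPKM on days 3 and 4 (3.79 ± 1.50). Tfcp2l1, a grainyhead-type factor downstream of LIF, had 8.48 and 28.2 FPKM on days 5 and 6, against 0.711 and 1.99 FPKM on days 3 and 4 (2.88 ± 0.63). Esrrb was already well above its day 3 level on day 4, whereas Tfcp2l1 was low on both earlier days. Nanog had 166 and 181 FPKM on days 5 and 6, against 13.5 and 99.1 FPKM on days 3 and 4. Zfp42, known as Rex1, had 7.63 and 28.3 FPKM on days 5 and 6, against 0.438 and 5.12 FPKM on days 3 and 4, and Prdm14, a repressor of primed genes, had 1.48 and 4.46 FPKM, against 0.0600 and 0.166 FPKM. Nr5a2 and Nr0b1 were higher on day 4 than on at least 1 later day. Nr5a2 had 9.28 and 11.4 FPKM on days 5 and 6, against 0.625 and 16.7 FPKM on days 3 and 4.

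Reads of the 4 cassette factors come from the endogenous genes and, where the cDNA carries the same exons, from the transgene, and the 2 sources cannot be told apart here. Pou5f1 had 482 and 530 FPKM on days 5 and 6, against 20.1 and 139 FPKM on days 3 and 4 (3.22 ± 1.06, adjusted p = 0.433, limma). Sox2 had 78.4 and 110 FPKM on days 5 and 6, against 93.4 and 83.2 FPKM on days 3 and 4, and its groups overlap. Klf4 had 25.8 and 16.9 FPKM on days 5 and 6, against 42.4 and 32.6 FPKM on days 3 and 4 (-0.80 ± 0.31). Myc had 32.9 and 15.7 FPKM on days 5 and 6, against 50.2 and 44.4 FPKM on days 3 and 4 (-1.02 ± 0.39). Pou5f1 was thus the 1 factor of the 4 that was higher on both later days, Klf4 and Myc were lower on both, and none passed the test.

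Promoters of Esrrb and Pou5f1 are shown because both genes belong to the pluripotency network and were higher on both later days, and the factors in the cassette include Klf4. The windows run from 250 bases before to 50 after the start, from RefSeq (GRCm38.p6). Capitals mark the Klf motif GGGNGGG or its reverse complement, found on either strand.
Esrrb, chr12:86360867-86361166, plus strand: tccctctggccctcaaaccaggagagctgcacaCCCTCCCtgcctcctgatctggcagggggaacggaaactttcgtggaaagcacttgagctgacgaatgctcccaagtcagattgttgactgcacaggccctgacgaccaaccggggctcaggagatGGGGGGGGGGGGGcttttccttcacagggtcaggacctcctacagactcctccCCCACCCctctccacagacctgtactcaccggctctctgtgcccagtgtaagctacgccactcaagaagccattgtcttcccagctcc
Pou5f1, chr17:35505782-35506081, plus strand: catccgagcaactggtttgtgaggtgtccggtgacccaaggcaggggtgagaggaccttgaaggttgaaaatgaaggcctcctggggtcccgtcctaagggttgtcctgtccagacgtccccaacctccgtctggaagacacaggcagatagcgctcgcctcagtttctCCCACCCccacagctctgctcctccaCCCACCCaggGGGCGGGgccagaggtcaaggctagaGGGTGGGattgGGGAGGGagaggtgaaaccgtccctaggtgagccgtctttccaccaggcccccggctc

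The motif starts at 9 positions in the Esrrb window, 7 of them overlapping within 1 run of G, and at 5 in the Pou5f1 window. It occurs in 47.7% of all 27025 promoters of the table, so a match is common and says nothing about binding. The octamer core ATGCAAA (4.59% of all promoters), the E-box CACGTG (7.24%), the Esrrb half-site AAGGTCA (4.66%), the AP-1 site TGANTCA (7.93%) and the E2F site TTCCCGC (4.66%) are absent from both windows on either strand, as is the CArG box (1.57%). Promoters could be matched for 368 of the 504 clearly higher and 366 of the 497 clearly lower protein-coding genes, under 80% of each, so a comparison of motifs or base composition between them is void and was not made.

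**Figure D3:**
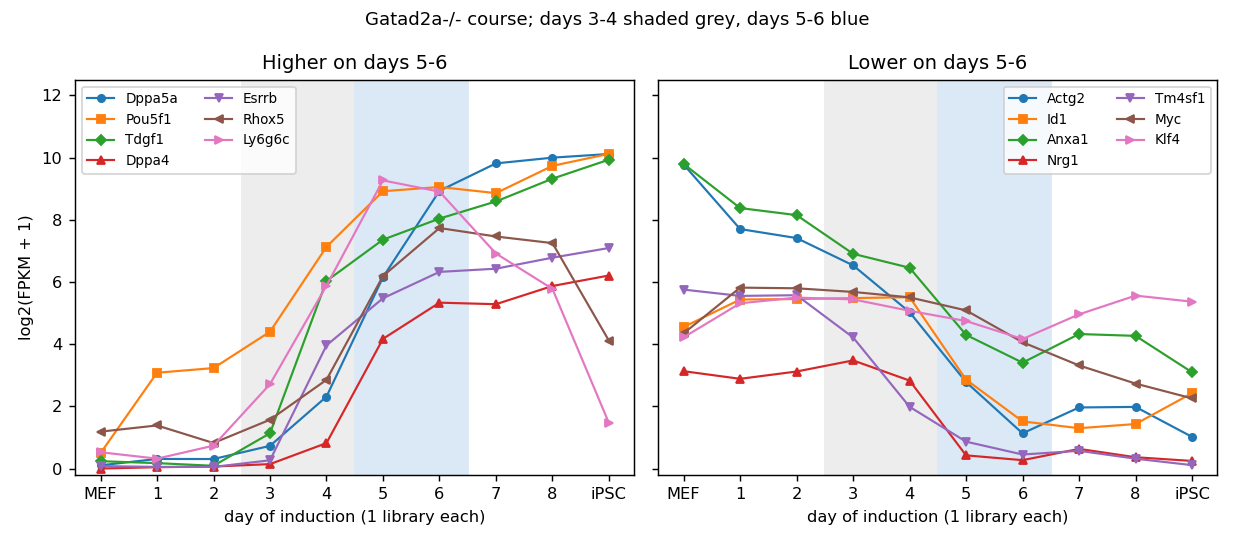
Level (log2(FPKM + 1), vertical axis) of 14 named genes in each library of the Gatad2a-/- course (horizontal axis, 1 library each), with days 3 and 4 shaded grey and days 5 and 6 shaded blue; left, genes higher on days 5 and 6, right, genes lower. Dppa5a climbs through the 4 days and on to iPSC, Ly6g6c and Rhox5 turn down again by iPSC, and Actg2 and Anxa1 are lower on each day up to day 6 than on the one before.

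Of 38 germline genes 12 passed the filter on low values and 26 did not. Of the 12, 2 passed only through days 5 and 6, and others were near the limit on the earlier days, so the filter favours members that are high on days 5 and 6. The 8 clearly higher and 0 clearly lower members, and the median change of 2.14, describe those 12 and not the list. These genes are silenced in somatic cells, many by promoter DNA methylation. Rhox5 (X chromosome) had 72.0 and 212 FPKM on days 5 and 6, against 1.97 and 6.22 FPKM on days 3 and 4 (4.75 ± 0.70, adjusted p = 0.153 over all genes, limma). Among protein-coding genes its adjusted p was 0.0306, and over the 14 alternatives it ran between 0.00881 and 0.559. Rhox6 had 13.0 and 60.7 FPKM on days 5 and 6, against 0.307 and 1.24 FPKM on days 3 and 4, and Rhox9 had 5.99 and 39.3 FPKM, against 0.0289 and 0.534 FPKM. The Rhox genes are relatives in 1 cluster, so some reads may be split between them. Tex13, a testis-expressed gene also on the X chromosome, had 29.4 and 29.9 FPKM on days 5 and 6, against 0.863 and 2.54 FPKM on days 3 and 4. Piwil2 had 10.97 and 14.6 FPKM on days 5 and 6, against 0.534 and 1.16 FPKM on days 3 and 4. All 5 were picked for being higher on days 5 and 6, so that they were is no result. Rhox9 was under 1 FPKM on both earlier days and passed the filter through days 5 and 6 alone. All 5 were lower again in the 1 iPSC library: Rhox5 had 16.3, Rhox6 2.73, Rhox9 2.59, Tex13 0.835 and Piwil2 1.93 FPKM there.

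Several other named genes were also transient. Ly6g6c, a GPI-anchored surface protein, had 613 and 478 FPKM on days 5 and 6, against 5.56 and 57.8 FPKM on days 3 and 4, and 1.76 FPKM in iPSC. Clec2i, a C-type lectin, had 10.99 and 38.3 FPKM on days 5 and 6, against 0.275 and 0.303 FPKM on days 3 and 4, and 0.246 FPKM in iPSC. Cyp2b23, a cytochrome P450, had 26.0 and 72.0 FPKM on days 5 and 6, against 0.123 and 5.03 FPKM on days 3 and 4, and 2.49 FPKM in iPSC. Myl4, a myosin light chain, had 55.8 and 52.7 FPKM on days 5 and 6, against 0.956 and 10.5 FPKM on days 3 and 4, and 5.83 FPKM in iPSC. All 4 were lower in iPSC than on days 5 and 6. Others were not: Trap1a, an X-linked tumour antigen gene, had 8.93 and 57.6 FPKM on days 5 and 6, against 0.0534 and 1.68 FPKM on days 3 and 4, and 174 FPKM in iPSC. Phf11d, a PHD finger protein, had 24.8 and 41.4 FPKM, against 0.329 and 2.21 FPKM, and Mylpf, another myosin light chain, had 140 and 375 FPKM, against 8.46 and 39.0 FPKM.

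The miR-290 to miR-295 cluster on chromosome 7, the main miRNA cluster of mouse pluripotent cells, is given as well; it was chosen after its values were seen. Its 3p arms are shown with the seed (bases 2 to 8) in capitals, since members that share a seed are known to share targets.
miR-291a-3p: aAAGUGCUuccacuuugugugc
miR-294-3p: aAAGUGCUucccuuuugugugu
miR-295-3p: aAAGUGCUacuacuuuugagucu
miR-291b-3p: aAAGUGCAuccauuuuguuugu
miR-293-3p: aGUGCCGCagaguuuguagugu

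The sequences are from RefSeq (GRCm38.p6). The first 3 share the seed AAGUGCU, which 5 of the 1679 mature miRNAs of the table carry (0.298%), miR-291b-3p has the seed AAGUGCA (0.119%), and miR-293-3p has GUGCCGC (0.0596%). What the tables list is not these mature forms but the hairpin genes, 69 to 84 bases long, in poly(A) libraries, so their FPKM are uncertain. Mir293 (chr7:3220343-3220422) had 151 and 1429 FPKM on days 5 and 6, against a listed 0 and 114 FPKM on days 3 and 4. Mir292 (chr7:3219189-3219270) had 21.8 and 326 FPKM on days 5 and 6, against a listed 0 on both days 3 and 4 (adjusted p = 0.336, limma). Mir295 had 64.6 and 525 FPKM on days 5 and 6, against a listed 0 and 172 FPKM on days 3 and 4, and Mir294 had 19.01 and 141 FPKM, against a listed 0 and 105 FPKM. Both Mir294 and Mir295 overlap between the groups, because day 4 exceeded day 5. Mir291a and Mir291b were listed at 0 on days 3 to 5 and had 81.6 and 206 FPKM on day 6. Mir290 was listed at 0 on days 3 to 6 and had 36.9 FPKM on day 7. Every hairpin of the cluster was listed at 0 in all 11 libraries of Mbd3f/-, all 7 of WT-1 and all 6 of WT-2, iPSC and ES included. No comparison between systems is made for them, since system and table cannot be told apart.

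Epithelial genes formed the other higher group. Of 30 junction and adhesion genes 29 were tested, with a median change of 1.15. Of these, 17 were clearly higher and 0 clearly lower, against 4.33% and 4.27% of protein-coding genes. The count depends on day 3: without it, 9 were clearly higher, since day 4 lay nearer the later days than day 3 did. Epcam, an adhesion molecule of epithelia and pluripotent cells, had 175 and 249 FPKM on days 5 and 6, against 23.7 and 88.6 FPKM on days 3 and 4. Cdh1, the E-cadherin of adherens junctions, had 73.9 and 98.5 FPKM on days 5 and 6, against 12.53 and 58.9 FPKM on days 3 and 4. Cldn6, a tight junction claudin of early embryonic epithelia, had 37.1 and 64.0 FPKM, against 1.63 and 16.8 FPKM (2.86 ± 1.07). Grhl2 was low on both earlier days: it had 12.3 and 13.1 FPKM on days 5 and 6, against 1.32 and 1.52 FPKM on days 3 and 4, and passed the test among protein-coding genes (adjusted p = 0.0363, limma). Rab25, an epithelial trafficking GTPase, had 18.4 and 19.4 FPKM, against 0.331 and 4.87 FPKM, and 1.88 FPKM in iPSC. The keratins of the list differed among themselves: Krt18 was clearly higher, Krt19 was lower on both later days, and the groups overlap for Krt8. Krt18 had 7.21 and 12.004 FPKM on days 5 and 6, against 2.27 and 5.64 FPKM on days 3 and 4. Krt19 had 23.0 and 16.4 FPKM on days 5 and 6, against 24.6 and 63.1 FPKM on days 3 and 4, and Krt8 had 97.6 and 53.1 FPKM, against 28.2 and 87.4 FPKM.

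**Figure D4:**
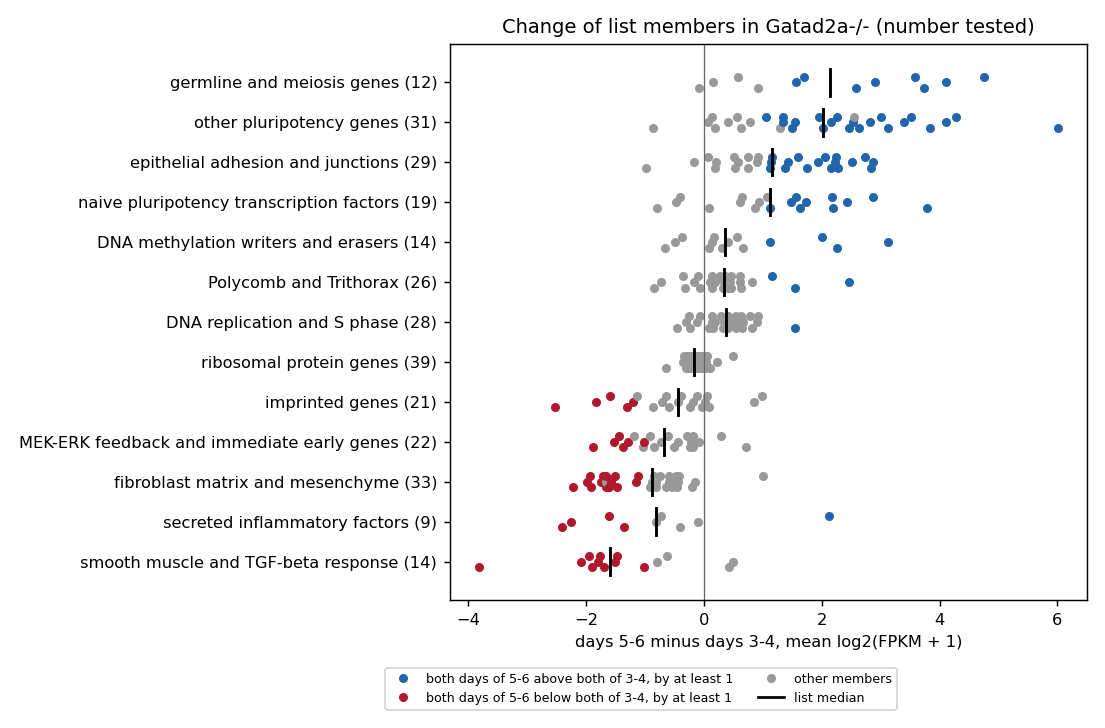
Difference of days 5 and 6 minus days 3 and 4 (mean log2(FPKM + 1), horizontal axis) for each tested member of 13 gene lists (rows, number tested in brackets); blue and red points are members whose groups do not overlap and differ by at least 1, grey points the other members, black bars list medians. Germline and other pluripotency genes have medians of 2.14 and 2.02, and the smooth muscle list has a median of -1.60.

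Of 18 smooth muscle and TGF-beta response genes 14 were tested, with a median change of -1.60. Of these, 10 were clearly lower and 0 clearly higher, against 4.27% and 4.33% of protein-coding genes. Actg2 (chromosome 6), the smooth muscle gamma-actin, had 5.87 and 1.19 FPKM on days 5 and 6, against 91.5 and 31.6 FPKM on days 3 and 4 (-3.82 ± 0.78, adjusted p = 0.233, limma). It had been at 875 FPKM in MEF. Acta2, the smooth muscle alpha-actin, had 6.94 and 3.12 FPKM on days 5 and 6, against 45.3 and 11.8 FPKM on days 3 and 4. Ctgf, a matricellular target of TGF-beta and YAP, had 3.01 and 10.2 FPKM, against 27.4 and 22.5 FPKM. The actins were lowest on day 6, whereas Ctgf was lowest on day 5. Bulk values do not tell fewer cells of a type from less RNA per cell, here or in the lists that follow.

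Of 38 fibroblast matrix and mesenchyme genes 33 were tested, 3 of them admitted through days 3 and 4 alone, with a median change of -0.88. Of these 33, 14 were clearly lower and 0 clearly higher, against 4.27% and 4.33% of protein-coding genes. The count was 7 without day 3 and 26 without day 4, so the count depends on which earlier day is kept. Vim, the intermediate filament vimentin, had 79.2 and 75.6 FPKM on days 5 and 6, against 487 and 196 FPKM on days 3 and 4 (-1.99 ± 0.45). Twist1, a mesenchymal transcription factor, had 3.46 and 0.989 FPKM on days 5 and 6, against 18.5 and 8.88 FPKM on days 3 and 4 (-2.22 ± 0.55). Many secreted matrix genes were clearly lower as well, among them the crosslinking enzymes Lox (-1.76) and Loxl2 (-1.93), the proteoglycans Bgn (-1.61) and Dcn (-1.47), and Fbn1 (-1.66), Fbln2 (-1.67), Mmp2 (-1.51), Col6a1 (-1.12) and Col6a2 (-1.15), as changes on the log2(FPKM + 1) scale. Fn1, Col1a1 and Sparc were not. Fn1, fibronectin, had 50.2 and 137 FPKM on days 5 and 6, against 52.1 and 32.3 FPKM on days 3 and 4, and Col1a1 had 65.0 and 92.6 FPKM, against 139 and 79.5 FPKM. Sparc, a matrix glycoprotein, had 105 and 139 FPKM, against 244 and 149 FPKM. All 3 were higher on day 6 than on day 5; the groups overlap for Fn1 and Col1a1 and not for Sparc. The human feeder layer was the same label in all 4 libraries, and its part in these values was not tested.

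Among the largest decreases by gene, Id1 had 6.26 and 1.86 FPKM on days 5 and 6, against 43.6 and 44.6 FPKM on days 3 and 4 (-3.31 ± 0.48, adjusted p = 0.111 over all genes, limma). It was flat from day 3 to day 4 and then stepped down. Atp12a had 1.23 and 0.633 FPKM on days 5 and 6, against 21.7 and 16.0 FPKM on days 3 and 4 (-3.36 ± 0.36), with an adjusted p of 0.0523 over all genes (limma). Its adjusted p ran between 0.00766 and 0.463 over 14 alternatives, 5 of which passed the threshold. Anxa1 had 18.7 and 9.59 FPKM on days 5 and 6, against 119 and 86.8 FPKM on days 3 and 4, and Nrg1 had 0.342 and 0.206 FPKM, against 10.1 and 6.10 FPKM. Dusp14 had 17.9 and 12.6 FPKM on days 5 and 6, against 81.3 and 82.8 FPKM on days 3 and 4, and Fam107b had 5.74 and 5.87 FPKM, against 31.5 and 34.9 FPKM. These 6 differed less between days 3 and 4 than between day 4 and day 5. They are the genes that passed among protein-coding genes with days 3 and 4 as replicates, which favours a small step between those days. The pattern is thus partly fixed by the choice. Cldn11, a claudin that did not pass, had 2.55 and 1.43 FPKM, against 69.3 and 7.03 FPKM, with most of its step between days 3 and 4, as had Prss12 and Tm4sf1.

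Readouts of MEK-ERK signalling, the pathway that one of the 2i inhibitors blocks, were lower in part. Of 25 members 22 were tested, and the median change was -0.68. Of these, 6 were clearly lower and 0 clearly higher (2 clearly lower without day 6, 11 without day 3), against 4.27% and 4.33% of protein-coding genes. The median change of the same members was 0.18 in Mbd3f/-, and 0.34 from day 4 to day 6 in WT-2. Ccnd1, cyclin D1, had 32.2 and 13.3 FPKM on days 5 and 6, against 66.1 and 57.3 FPKM on days 3 and 4. Fosl1, an AP-1 subunit, had 7.83 and 3.62 FPKM, against 8.30 and 25.2 FPKM. Fosl1, Spry4 and Dusp6 peaked on day 4 among the 4 days. Dusp6, the ERK phosphatase induced by ERK, had 4.30 and 3.98 FPKM on days 5 and 6, against 4.18 and 10.9 FPKM on days 3 and 4. Etv5, an ETS factor, was higher on both later days, at 69.5 and 52.3 FPKM, against 31.1 and 42.3 FPKM.

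Chromatin regulators were mixed. Of 14 writers and erasers of DNA methylation, 4 were clearly higher and 0 clearly lower, against 4.33% and 4.27% of protein-coding genes. The median change was 0.36. Of the 4, Dnmt3l passed the filter on low values through days 5 and 6 alone, so it had to be higher. Dnmt3l, the catalytically inactive partner of the de novo methyltransferases, had 4.91 and 32.3 FPKM on days 5 and 6, against 0.322 and 0.973 FPKM on days 3 and 4 (3.12 ± 0.89). Tet1, which oxidises methylcytosine, had 19.5 and 39.6 FPKM on days 5 and 6, against 4.71 and 5.34 FPKM on days 3 and 4 (2.26 ± 0.40), and Dnmt3b had 6.83 and 12.4 FPKM, against 1.07 and 2.14 FPKM. Dnmt1 differed little. Of 26 Polycomb and Trithorax genes 3 were clearly higher, against 4.33% of protein-coding genes: Cbx7, a chromobox subunit of PRC1, with 20.7 and 43.6 FPKM on days 5 and 6, against 5.37 and 4.02 FPKM on days 3 and 4, Jarid2, a PRC2 cofactor, and Kdm2b. Without day 6 the count was 1, so little can be read from it about the list. Of 15 NuRD subunits 14 were tested: Chd3, a remodelling ATPase, had 34.2 and 25.8 FPKM on days 5 and 6, against 91.9 and 51.8 FPKM on days 3 and 4, and Mta3 had 56.7 and 97.2 FPKM, against 41.8 and 29.3 FPKM.

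Of 23 imprinted genes 21 were tested, 5 were clearly lower and 0 clearly higher, against 4.27% and 4.33% of protein-coding genes. The counts rest on single days: 3 were clearly lower without day 3 and 9 without day 4, and 2 were clearly higher without day 6. Dlk1, a Notch-family ligand of the Dlk1-Meg3 locus, had 3.09 and 1.05 FPKM on days 5 and 6, against 32.0 and 7.37 FPKM on days 3 and 4, and Plagl1, a zinc finger regulator, had 1.64 and 1.56 FPKM, against 13.7 and 4.80 FPKM. Of 22 secreted inflammatory factors 9 were tested, 4 of them admitted by the filter through days 3 and 4 alone, Ptgs2 and Ccl7 included, so the 4 clearly lower members do not describe the list. Ptgs2, the inducible cyclooxygenase, had 0.347 and 0.341 FPKM on days 5 and 6, against 4.80 and 6.14 FPKM on days 3 and 4. Ccl7, a chemokine, had 0.810 and 0.375 FPKM, against 4.55 and 11.8 FPKM. Saa3, an acute phase protein, was clearly higher instead, with 5.57 and 22.6 FPKM on days 5 and 6, against 1.74 and 2.00 FPKM on days 3 and 4.

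Of 28 replication genes 12 lay higher on both later days and 1 lower, against 20.4% and 24.2% of all genes. Of the 28, 1 was clearly higher (2 without day 5 or day 6, and 5 without day 4), against 4.33% of protein-coding genes. It was Ccne1, cyclin E, with 108 and 104 FPKM on days 5 and 6, against 31.4 and 40.1 FPKM on days 3 and 4 (1.55 ± 0.24). Of 24 mitosis genes 10 lay higher and 0 lower without overlap, against the same 20.4% and 24.2%, and 0 were clearly higher. Of 39 ribosomal protein genes 23 lay lower and 1 higher without overlap, against 24.2% and 20.4% of all genes, with a median change of -0.17 and 0 clearly lower. The median change of all protein-coding genes tested was -0.06, and their median step from day 5 to day 6 was -0.19. Of 23 one-carbon, serine and threonine enzymes 2 were clearly higher and 1 clearly lower, against 4.33% and 4.27% of protein-coding genes. In 16 of the 23 the groups overlap, and the median change was 0.11. The 2 clearly higher ones were the glycine cleavage enzymes Amt and Gldc. Amt had 20.7 and 38.6 FPKM on days 5 and 6, against 7.27 and 5.38 FPKM on days 3 and 4.

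Markers of other cell types were mixed. The 12 macrophage and blood markers summed to 61.9 and 59.1 FPKM on days 5 and 6, against 126 and 54.8 FPKM on days 3 and 4. Laptm5 and Cd68 made up most of these sums, the defining Csf1r was under 1 FPKM in all 4 libraries and Tyrobp was listed at 0 on days 5 and 6. The 25 transient epidermal and keratinocyte genes summed to 661 and 554 FPKM on days 5 and 6, against 343 and 726 FPKM on days 3 and 4, with 1 clearly higher. Endothelial markers summed to 14.8 and 18.03 FPKM, against 39.0 and 17.0 FPKM, and endoderm genes to 24.99 and 18.995 FPKM, against 75.4 and 38.0 FPKM. The day 3 library had the highest sum in the macrophage, endothelial and endoderm lists. Tek held 31.8 FPKM of the endothelial sum on day 3, Cdh5 and Kdr were under 1 FPKM in all 4 libraries, and Egfl7 and Tie1 were higher on both later days. Lamb1 (33.5 FPKM) and Dab2 (23.7 FPKM) led the endoderm sum on day 3, and Sox17, Foxa2, Afp and Ttr were under 1 FPKM in all 4 libraries. Whether cells of these types were present, or contribute to the lower values above, was not tested. Of the 15 genes of the 2-cell-like state none passed the filter. Of the fibroblast markers Vim was at 75.6 FPKM on day 6 and at 160 FPKM in the iPSC library.

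Mbd3f/- cells were sampled on the same days, in libraries and a table of their own. Of the 504 clearly higher protein-coding genes of Gatad2a-/-, 93.1% were also higher in Mbd3f/-, against 63.4% of all protein-coding genes, with a median change of 1.07 there and 1.51 in Gatad2a-/-. Of the 497 clearly lower genes 90.7% were also lower, against 36.1% of all, with medians of -0.79 and -1.34. Dppa5a, for instance, had 34.5 and 208 FPKM on days 5 and 6 of Mbd3f/-, against 0.472 and 1.28 FPKM on days 3 and 4. In the 8-library fit of the difference between the 2 systems' changes, 23 genes were higher in Gatad2a-/- (0.135%) and 41 lower (0.241%) of 17025, 0.376% in all. In the same fit the Gatad2a-/- change alone had 186 genes higher (1.09%) and 109 lower (0.64%), 1.73% in all, and the Mbd3f/- change 11 higher (0.0646%) and 5 lower (0.0294%), 0.094% in all. Of these 64 genes, 57 were listed at 0 in all 4 Mbd3f/- libraries and 58 were small RNA genes or had no annotation entry. Among protein-coding genes alone the fit called 1 (0.00821%), Gm3625. Among named genes, larger gaps included Id1, with -3.31 in Gatad2a-/- and -0.65 in Mbd3f/- (difference -2.65, adjusted p = 0.781, limma), and Rhox9, with 3.74 and 0.55. Some named genes changed in opposite directions. Nppb had -2.47 in Gatad2a-/- and 0.78 in Mbd3f/- (difference -3.25, adjusted p = 0.275, limma), and Ankrd37 had 1.47 and -1.09. None of these differences passed the test, which does not show that the systems act alike.

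**Figure D5:**
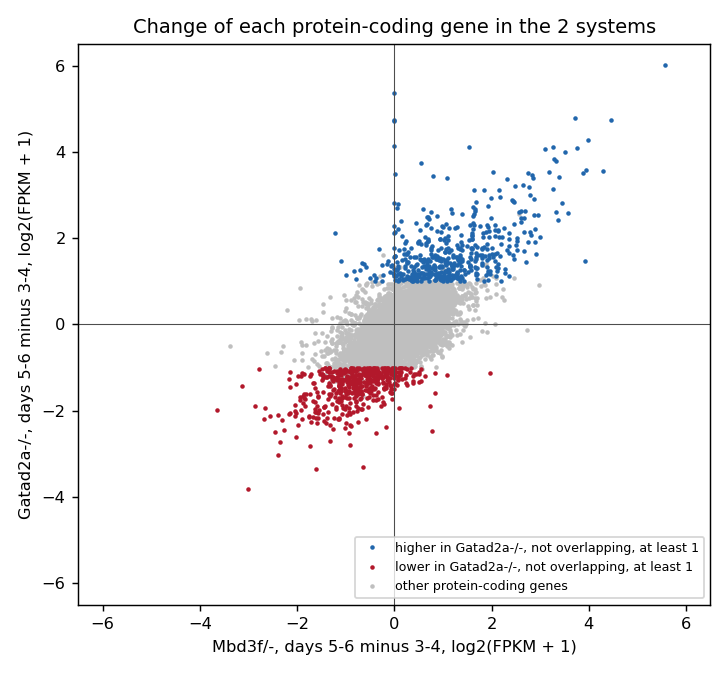
Change from days 3 and 4 to days 5 and 6 (log2(FPKM + 1)) of each protein-coding gene in Gatad2a-/- (vertical axis) and Mbd3f/- (horizontal axis); blue and red points are the 504 clearly higher and 497 clearly lower genes of Gatad2a-/-, grey points the other genes. Most blue points lie right of 0 (93.1%) and most red points left of it (90.7%).

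Wild-type cells had 1 library on day 6 and 1 on day 4, so the same genes are only described there. In WT-2, 34.7% of the 504 higher genes were higher on day 6 than on day 4, against 42.6% of all protein-coding genes, and 51.3% of the 497 lower genes were lower, against 54.7%. Genes listed at 0 on both days, such as Dppa4, Tdgf1, Rhox6 and Ly6g6c in WT-2, count as neither. The median WT-2 change of the 504 was 0. How far undetected genes lower these shares was not tested. In WT-1 the share of the higher genes was above that of all genes, at 52.2% against 43.4%, and that of the lower genes below it, at 46.9% against 55.2%. Dppa5a was listed at 0 on both days in WT-2 and had 3.12 FPKM on day 6 and 3.40 FPKM on day 4 in WT-1. Anxa1 had 230 FPKM on day 6 and 222 FPKM on day 4 in WT-2, whereas in Gatad2a-/- it had 9.59 FPKM on day 6 and 86.8 FPKM on day 4. Id1 had 6.12 FPKM on day 6 and 2.31 FPKM on day 4 in WT-2. These wild-type values have no replicate, and the difference from Gatad2a-/- was not tested.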

How the data were processed

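Poly(A) RNA was made into TruSeq libraries, per the labels' protocols. The authors deposited FPKM per gene in 1 table per system; Cufflinks 2.2.1, TopHat2 2.0.10, CASAVA 1.8.2 and mm10 stand in the submitters' processing notes. The sources used here give no annotation release, strand use or depth; the kit does not mark strand, so overlapping and antisense genes are uncertain. From the deposited values, 22 rows that repeat a gene identifier were summed. Columns with values but no sample numbered 0. Coordinates and biotypes come from GENCODE M21.

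Log2(FPKM + 1) was tested with limma 3.58.1 in R 4.3.3 (eBayes with trend and robust, Benjamini-Hochberg, threshold 0.05, no block). Genes needed an FPKM of at least 1 in 2 libraries. A pseudocount of 1 understates the change of low genes. The fits were tested on simulated data.

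The rule named the 15 largest rises and falls past the threshold with a mean FPKM of at least 5, leaving out predicted, pseudogene and small RNA genes. It gave 0 genes, so the same was done by size among genes whose groups do not overlap; Gatad2a, Mbd3, the cassette factors and leading list members were named as well. Others (such as the miR-290 cluster, Dppa2, Dppa3, Utf1, Fgf4, L1td1, Tdh, Nanog, Zfp42, Prdm14, Nr5a2, Epcam, Cdh1, Krt8, Krt19, Ctgf, Fn1, Col1a1, Sparc, Dusp6, Etv5, Saa3 and genes passing among protein-coding genes) were chosen after their values were seen. Members and lists were chosen with earlier results of these data known. The alternatives are listed with their effect in the closing section.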

Additional observations from a re-analysis of the deposited data

Results flagged for a closer look

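Cml3, an N-acetyltransferase family gene, differed between the 2 depleted systems by the test of the difference itself. In Gatad2a-/- it had 0.421 and 0.601 FPKM on days 5 and 6, against 0.946 and 0.626 FPKM on days 3 and 4. In Mbd3f/- it had 8.54 and 9.96 FPKM on days 5 and 6, against 1.02 and 0.811 FPKM on days 3 and 4. The Gatad2a-/- change minus the Mbd3f/- change was -2.66 ± 0.33 (log2(FPKM + 1), SE; adjusted p = 0.0280, limma, 8 libraries). The adjusted p over the 10 alternatives ran between 0.0226 and 0.385, and 2 of them passed the threshold. System and deposited table cannot be told apart here, and the cause was not tested.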

How the results depend on the processing

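No paired analysis was possible because adjacent days stand as replicates and the labels give no number that ties a day of one group to a day of the other. In the alternatives, the 7 genes higher in Gatad2a-/- on days 5 and 6 than on days 3 and 4 became 3 with quantile normalization, 15 with a pseudocount of 0.1, 0 with no filter on low values (26 lower became 0 there) and 48 with the spread over all 10 libraries. Settings chosen after seeing the data gave 23 higher and 6 lower among protein-coding genes, 117 higher there with the spread over 10 libraries, 1 higher and 0 lower there with upper quartile scaling, and 186 higher and 109 lower in the 8-library fit. Leaving out 1 library gave 0 (without day 6) to 33 (without day 5) higher and 0 (without day 6) to 66 (without day 5) lower. The 23 and 41 genes higher and lower in the difference between systems became 12 higher with no filter, 1 and 0 among protein-coding genes, and 0 (without day 6) to 45 (without day 5) higher and 1 (without day 3) to 127 (without day 5) lower. Clearly lower protein-coding genes numbered 361 (without day 6) to 1044 (without day 4). The cause was not tested, beyond fewer genes or samples where the setting removes them.

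Of 96 named genes 7 changed sign in at least 1 alternative. Without 1 library, the change ran between -0.20 and 0.089 for Mbd3 (0.00193 among protein-coding genes with upper quartile scaling), -0.052 and 0.18 for Gatad2a, -0.17 and 0.32 for Sox2, -1.30 and 3.06 for Sfn, -1.42 and 0.064 for Zic1, -1.51 and 0.035 for Cyp51, and -0.29 and 0.47 for Tnni1. With 1 library a day, a depth that is unknown and 2 residual degrees of freedom, p-values measure only the spread between these libraries.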
